A study of Mus musculus with 9 samples.

Results

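Oxidative phosphorylation (OXPHOS) is the route by which mitochondria pass electrons from fuel to oxygen through complexes I to IV and use the resulting proton gradient to make ATP at complex V. Its subunits come from both genomes of the cell: most are encoded in the nucleus and imported, and the remainder are transcribed inside the mitochondrion as long polycistronic RNAs from the mitochondrial genome. Phosphate is a substrate of complex V, and in bone-forming cells the pathway works beside glycolysis to supply energy for matrix production and mineralisation.

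The genes described here were chosen by name: every gene whose symbol starts with *Nduf* (assembly factors left out), *Uqcr*, *Atp5* or *Cox4* to *Cox8*, together with *Sdha*, *Sdhb*, *Sdhc*, *Sdhd*, *Cyc1* and *Cycs* and the mitochondrial genes *mt-Nd1*, *mt-Nd2*, *mt-Co1*, *mt-Nd4*, *mt-Nd5* and *mt-Cytb*. This rule found 100 of the 55416 genes in the count table, 94 in the nuclear and 6 in the mitochondrial genome, under 99 distinct names because *Atp5o* is listed under 2 gene identifiers. Of these, 88 passed the filter on low counts that 13679 of all genes passed, 82 nuclear and all 6 mitochondrial. The other 12 were *Cox6a2*, *Cox6b2*, *Cox6c2*, *Cox7a1*, *Cox7b2*, *Cox8b*, *Cox8c*, *Ndufa11b*, *Ndufb11b*, *Ndufb4c*, *Ndufs6b* and the second *Atp5o*, none of which exceeded 7 counts in any library.

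RNA was sequenced from MC3T3-E1, a mouse pre-osteoblast line from calvarial bone of wild-type genotype, in 3 conditions of 3 libraries each. All cells had been differentiated in osteogenic medium holding 10 mM β-glycerophosphate, ascorbic acid and dexamethasone. The labels give 27 days of differentiation, while the study's methods withdraw the β-glycerophosphate after 21 days and continue to day 28, so whether Control cells still held it at treatment is uncertain. The medium itself holds 1 mM sodium phosphate in every condition, per those methods. The Control cells received no added treatment phosphate, the BGP cells received 4 mM β-glycerophosphate, an organic phosphate donor, and the NaHPO4 cells received 4 mM Na2HPO4/NaH2PO4, an inorganic phosphate, both from day 27 and for 16 h. The comparisons asked how each form of phosphate changed gene expression and how the forms differed from each other. All libraries come from 1 cell line, and nothing in the labels says that they came from separate experiments, so the p-values measure the spread between these samples, which may be technical. Libraries held 21390839 to 28234404 counts. All 10 osteoblast and osteocyte markers examined, such as *Runx2*, *Col1a1* and *Dmp1*, were detected. They summed to between 49100 and 58800 CPM (counts scaled to a fixed library size). The sum was lowest in NaHPO4 (49100 to 52400), against 55000 to 58800 in Control and 53800 to 57400 in BGP. Most of it was *Col1a1* (mean 43300 CPM in Control, 41500 in BGP, 37300 in NaHPO4) and *Ibsp* (12400, 12400 and 12200). *Dmp1*, which the paper calls a known phosphate response gene, rose with both phosphates, at 76.0, 552 and 349 CPM in that order. *Sost* held only 9 to 36 counts per library. Markers of adipocytes, skeletal muscle, chondrocytes and macrophages summed to at most 15.7 CPM per list, and *Cidec*, *Ucp1*, *Myh1* and *Myog* had 0 counts throughout. Of the 10 osteoblast and osteocyte markers, 4 were called lower and 1, *Dmp1*, higher with NaHPO4 than in Control by the test described below. That test called 7.38% of all genes in that comparison, and 8 of the 10 markers had a negative value. Between BGP and NaHPO4, 5 of the 10 were called higher in BGP, against 5.38% of all genes called, and 10 of 10 had a positive value. The part of these differences in the OXPHOS values was not tested. A lower share of a cell state and less RNA per cell cannot be told apart in these bulk libraries.

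OXPHOS genes were among the more abundant transcripts of these cells. Levels were compared between genes as RPKM, which is CPM divided by transcript length in kilobases, with the length of each gene's canonical transcript. In Control the 82 nuclear genes had a median of 56.6 RPKM, against 7.38 RPKM for all tested genes with a length, and 78 of them lay above that median. Their transcripts were short, with a median of 1140 bases and 4 exons against 3175 bases and 8 exons for all genes, and 51 of the 82 lay above the 90th percentile of all genes (40.5 RPKM). These contrasts with all genes were made with the canonical length only. Summed over a library, the nuclear genes took 0.658% to 0.712% of all counts and the 6 mitochondrial genes 2.46% to 2.65%. Their levels were also steady between replicates: the median coefficient of variation within a condition was 3.91% for nuclear and 2.08% for mitochondrial genes, against 5.85% for all tested genes. All tested genes include many at lower levels, and the part of the level in this difference was not tested.

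Within each complex the levels per length spanned a wide range. In complex I, which oxidises NADH, the 37 nuclear genes tested ran from *Ndufs6* at 5.19 ± 0.15 RPKM (SD, n = 3) to *Ndufb10*, a subunit of the membrane arm, at 114 ± 4.5 RPKM in Control. The 4 genes of complex II, succinate dehydrogenase, lay closer together. *Sdhb*, the iron-sulfur subunit, stood at 15.9 ± 0.22 RPKM and *Sdhd*, a membrane anchor, at 60.4 ± 0.80 RPKM. *Sdha*, which carries the flavin, stood at 39.7 ± 1.1 RPKM and *Sdhc*, the other anchor, at 33.9 ± 0.96 RPKM. In complex III, which hands electrons to cytochrome c, the lowest of the 9 genes was *Uqcr11* at 16.0 ± 0.97 RPKM and the highest *Uqcrh*, the hinge protein, at 66.3 ± 2.8 RPKM, with *Cyc1*, cytochrome c1, at 51.3 ± 2.9 RPKM. *Cycs*, cytochrome c itself, was listed at 8.88 ± 0.33 RPKM, but 37.9% of the 50-base windows of its transcript also occur elsewhere in the genome, so its level may be undercounted or shared with copies. In complex V, the ATP synthase, *Atp5b*, the catalytic beta subunit, was the highest nuclear gene at 412 ± 4.3 RPKM, and *Atp5mpl* the lowest of its complex at 8.92 ± 0.68 RPKM. *Atp5b* was the highest nuclear gene also when the union of exons or the longest transcript was used as length, but most other places in this order depend on the length. With either of these lengths the lowest gene was *Uqcr10* in complex III and *Atp5l* in complex V, and the highest in complex IV was *Cox8a*. In complex I the lowest was *Ndufb4* with the union, which also put *Ndufa1* highest, and *Ndufc1* with the longest transcript, which put *Sdhc* highest in complex II. The medians fell as well, to 14.1 RPKM for complex I and 11.6 RPKM for complex IV with the union, against 52.2 and 97.0 RPKM with the canonical transcript.

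**Figure D1:**
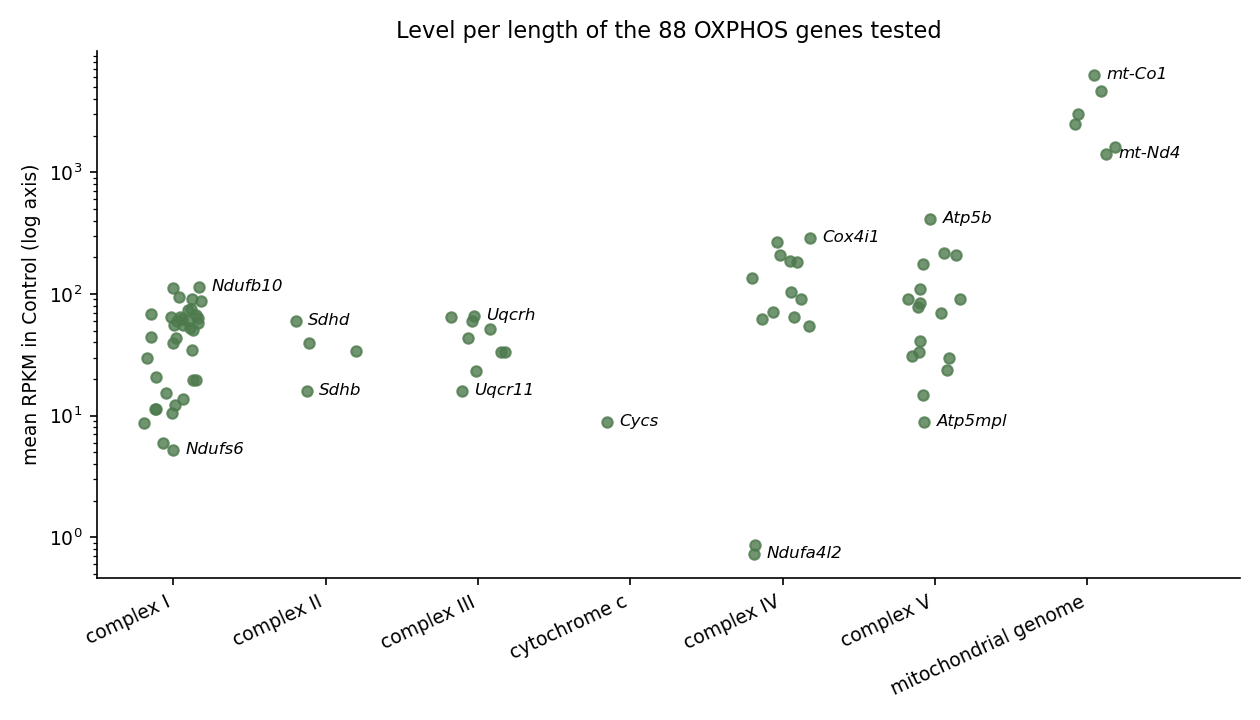
Mean level in the 3 Control libraries of each of the 88 OXPHOS genes tested, in RPKM on a log axis, by complex, each point 1 gene, with the highest and lowest of each complex named. Nuclear genes lie mostly between 5 and 412 RPKM apart from *Cox4i2* and *Ndufa4l2* under 1 RPKM, and the 6 mitochondrial genes lie from 1411 RPKM (*mt-Nd4*) to 6322 RPKM (*mt-Co1*).

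Complex IV, cytochrome c oxidase, has subunits with alternative isoforms used in different tissues, and the cells used the ubiquitous set. *Cox4i1* stood at 289 ± 10 RPKM in Control and its hypoxia- and lung-associated alternative *Cox4i2* at 0.872 ± 0.18 RPKM. *Cox6a1* stood at 181 ± 6.1 RPKM, while its heart and muscle form *Cox6a2* totalled 18 counts over all 9 libraries. *Cox6b1* stood at 136 ± 2.0 RPKM and the testis form *Cox6b2* had 0 counts in every library, which does not exclude a very low level. *Cox7a2* stood at 64.7 ± 2.6 RPKM and the muscle form *Cox7a1* totalled 19 counts. *Cox7a2l*, a factor of supercomplexes, stood at 103 ± 5.4 RPKM, with 46.8% of its windows found elsewhere in the genome. *Cox7b* stood at 90.8 ± 2.0 RPKM against 6 counts in all for *Cox7b2*. *Cox8a*, the ubiquitous form of subunit 8, stood at 267 ± 11 RPKM, while *Cox8b* totalled 4 counts and *Cox8c* had 0. *Ndufa4*, named for complex I but a subunit of complex IV, stood at 185 ± 8.1 RPKM and its hypoxia-induced relative *Ndufa4l2* at 0.732 ± 0.24 RPKM. The 3 genes for the same mature subunit c of the ATP synthase ring were all used, *Atp5g3* at 177 ± 8.9 RPKM, *Atp5g1* at 91.3 ± 5.5 RPKM and *Atp5g2* at 40.8 ± 2.4 RPKM. For *Atp5g1* and *Atp5g2*, 84.4% and 88.4% of windows occur elsewhere in the genome, against 0 of *Atp5g3*, so the order among these genes is uncertain. Of the isoform genes named here, *Cox8a* and *Ndufa4* passed the test in a comparison, as described below. *Cox6a2*, *Cox6b2*, *Cox7a1*, *Cox7b2*, *Cox8b* and *Cox8c* had too few counts to be tested, and the rest did not pass. Under some alternative settings *Cox4i1*, *Cox7a2l* and *Atp5g3* were called with NaHPO4 versus Control.

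The mitochondrial genes stood far above the nuclear ones. *mt-Co1*, the catalytic subunit of complex IV, was highest at 6322 ± 216 RPKM in Control, followed by *mt-Cytb* of complex III at 4623 ± 238 RPKM. The complex I genes *mt-Nd2*, *mt-Nd1*, *mt-Nd5* and *mt-Nd4* followed at 3016 ± 82, 2505 ± 58, 1621 ± 37 and 1411 ± 30 RPKM. Neighbours in this order differed by more than their spread. Large parts of *mt-Nd4* and *mt-Co1* also occur in the nuclear genome. The place of *mt-Nd4* and the distance of *mt-Co1* from the others are therefore uncertain.

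The remaining mitochondrial protein-coding genes, which the rule leaves out, bear on how complete these values are. *mt-Co2*, *mt-Atp8*, *mt-Atp6* and *mt-Co3* totalled 42, 16, 80 and 34 counts over all 9 libraries, and *mt-Nd3* and *mt-Nd4l* 475 and 218, although each lies on the same polycistronic strand as *mt-Co1* with its 2112315 counts. In GRCm39, the genome build of the deposited data, mitochondrial positions 6394 to 9460 occur letter for letter on nuclear chromosome 1 (chr1:24652199-24655265, minus strand), a stretch of 3067 bases. A second exact stretch of 1222 bases covers mitochondrial positions 9821 to 11042 at chr1:24650616-24651837. Every 50-base window of *mt-Co2*, *mt-Atp8*, *mt-Atp6*, *mt-Co3* and *mt-Nd4l*, and 99.0% of those of *mt-Nd3*, is found in the nuclear genome, as are 62.2% of those of *mt-Nd4*, 51.1% of *mt-Co1*, 8.29% of *mt-Nd2* and 7.61% of *mt-Nd5*. For *mt-Nd1* and *mt-Cytb* the share is 0. How reads with several matches were counted is not given in the sources used here, so the levels of *mt-Co1* and *mt-Nd4* may be too low by their shared part, and the place of *mt-Nd4* as the lowest of the 6 may not hold. The comparisons between conditions set each gene against itself. *mt-Nd6*, on the other strand, totalled 2437 counts with no shared window. The following 60-base stretches show the difference, 1 from the middle of *mt-Co2* (mitochondrial positions 7324 to 7383), also present at chr1:24654276-24654335 and chr2:22477604-22477663 on their minus strands, and 1 from the middle of *mt-Cytb* (positions 14686 to 14745), with no exact match in the nuclear chromosomes.
mt-Co2: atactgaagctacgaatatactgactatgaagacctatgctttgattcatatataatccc
mt-Cytb: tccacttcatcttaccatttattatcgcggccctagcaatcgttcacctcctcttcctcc

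**Figure D2:**
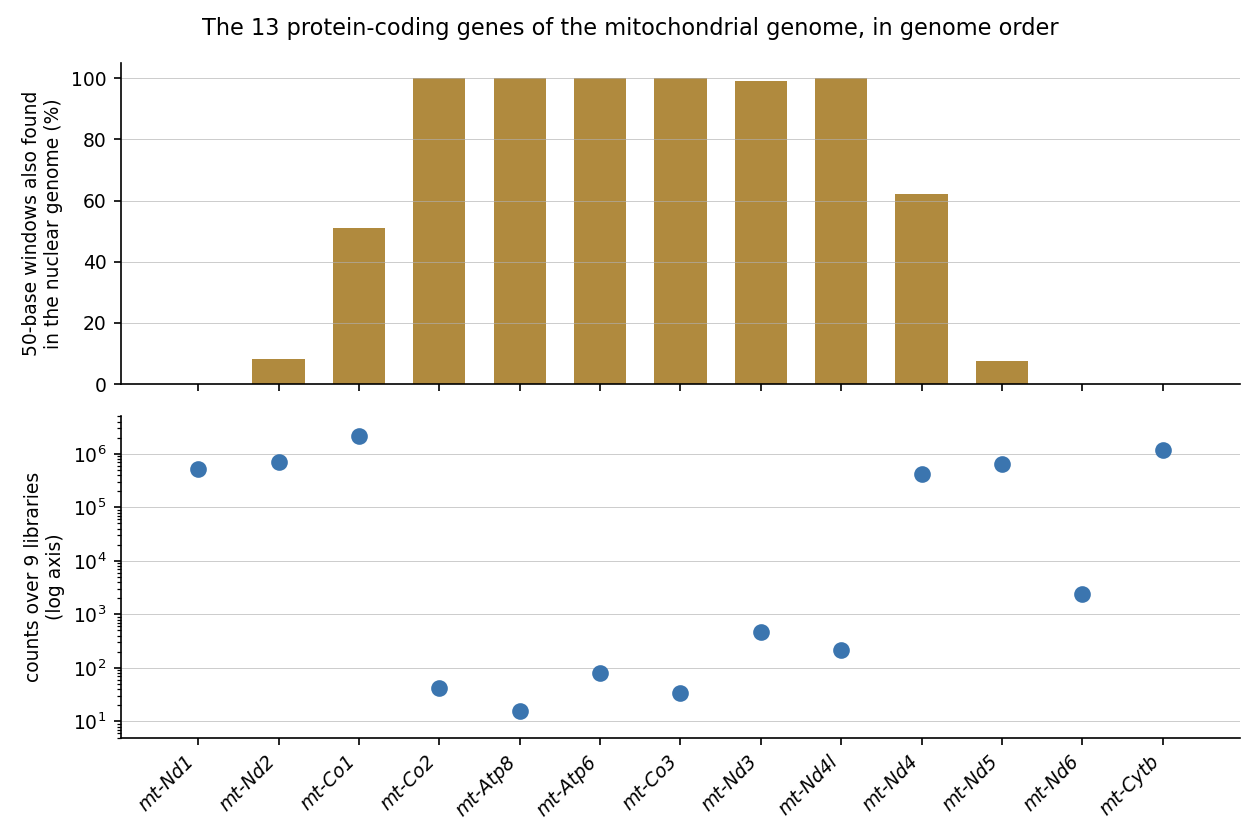
The 13 protein-coding genes of the mitochondrial genome in genome order, with the percent of 50-base windows also found in the nuclear genome (upper panel) and the counts summed over the 9 libraries on a log axis (lower panel). The 6 genes at 99.0% or 100% hold 16 to 475 counts, and the 6 genes followed here hold 425927 to 2112315.

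Each change between conditions was fitted in edgeR (quasi-likelihood test) over all 13679 genes, and a gene was called when its p adjusted by the Benjamini-Hochberg method (adjusted p) was below 0.05. A differentially expressed gene (DEG) also needed an absolute log2 fold change above 0.5, the threshold of the study. No OXPHOS gene was a DEG in any comparison, 0 of 88 each time. Among all genes tested, DEGs made up 0.556% for BGP versus Control, 0.716% for NaHPO4 versus Control and 0.585% for BGP versus NaHPO4. The 95% confidence interval of the log2 fold change lay within -0.5 and 0.5 for 86 of the 88 genes in each comparison, and within -0.25 and 0.25 for 80, 76 and 74 of them, in the same order. The 2 genes with wider intervals were *Cox4i2* and *Ndufa4l2*, which held 6 to 17 and 7 to 35 counts per library. *Ndufa4l2* counted 20, 11 and 18 in Control, 7, 14 and 21 in BGP and 35, 30 and 26 in NaHPO4. Its NaHPO4 libraries lay above all others, at a log2 fold change of 0.66 ± 0.36 (SE) against Control that did not pass the test (adjusted p = 0.307). *Cox4i2* differed by -0.62 ± 0.42 in the same comparison (adjusted p = 0.449), with overlapping libraries.

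**Figure D3:**
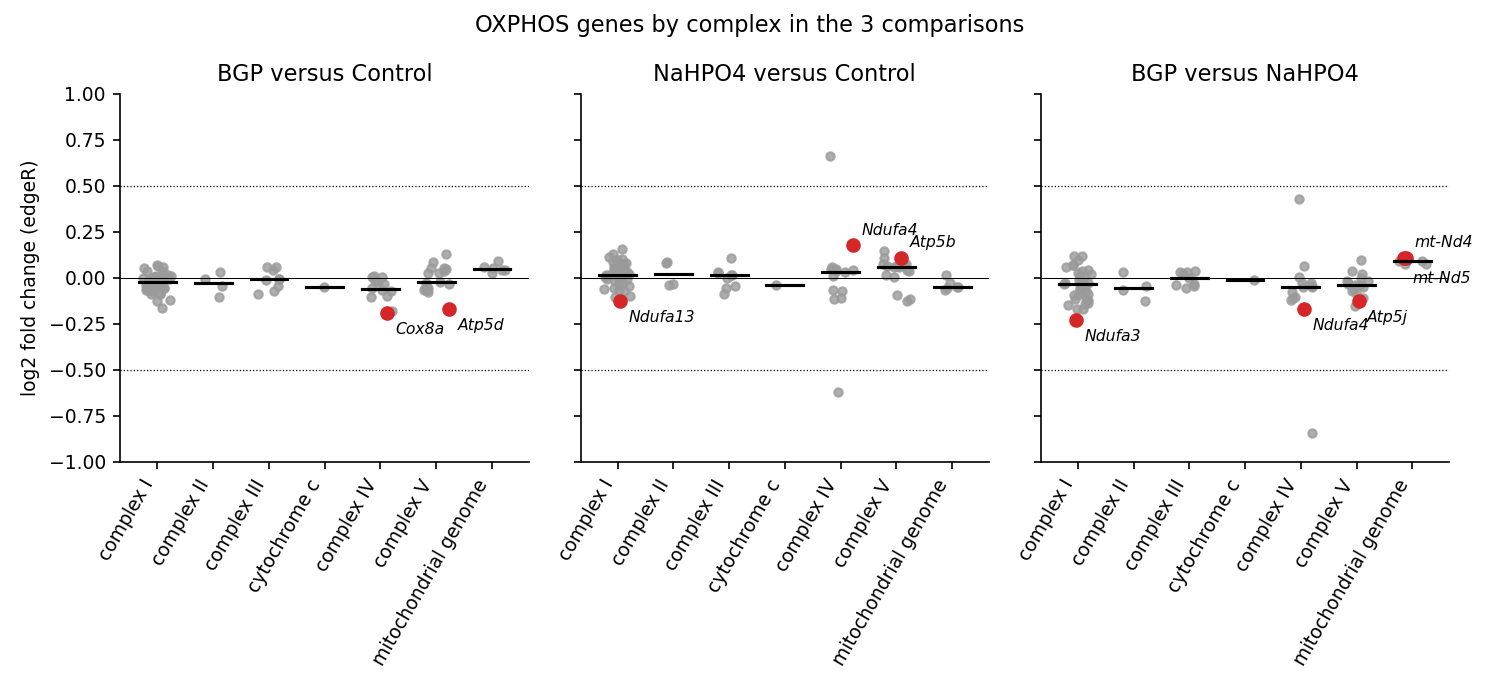
Log2 fold change from edgeR of each of the 88 OXPHOS genes, by complex, in the 3 comparisons, each point 1 gene, red and named where its adjusted p was below 0.05, with black bars at group medians and dotted lines at -0.5 and 0.5. Apart from *Cox4i2* and *Ndufa4l2*, down to -0.84 for *Ndufa4l2* between BGP and NaHPO4, all points lie within 0.25 of 0, the 10 calls on 9 genes included.

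With BGP, 2 of the 82 nuclear genes (2.44%) fell compared to Control and 0 rose. Across all genes tested 2.53% were called in this comparison, 1.86% higher and 0.665% lower, and 13.4% had an unadjusted p below 0.05. At that unadjusted level 7 nuclear genes were lower and 0 higher, and DESeq2 also called 0 higher. The median log2 fold change of the nuclear genes was -0.027, with 27 of 82 above 0, against -0.0043 for all genes. It was -0.015 without Control 1 and -0.015 after correction for gene length. Libraries of the conditions did not overlap for 14 nuclear genes that were lower and 3 that were higher in BGP, where 8.79% and 9.74% of all genes did so. By complex the medians were -0.026 for complex I, -0.027 for complex II, -0.0069 for complex III, -0.063 for complex IV and -0.026 for complex V.

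The genes that fell with BGP were a subunit of complex IV and a subunit of complex V. *Cox8a* (ENSMUSG00000035885, GRCm39 chr19:7192515-7194997, minus strand, 2 exons) measured 157, 149 and 145 CPM in the Control libraries, 134, 132 and 128 CPM in BGP and 138, 142 and 149 CPM in NaHPO4. All BGP libraries lay below all others. BGP stood at 0.874 times the Control level, a log2 fold change of -0.19 ± 0.039 (SE, adjusted p = 0.00162), and the difference of BGP from NaHPO4, -0.12 ± 0.039, did not pass the test (adjusted p = 0.0589). That difference was called with scaling by total counts or without NaHPO4 1 (adjusted p = 0.0178 and 0.027). Of the windows of *Cox8a*, 18.6% occur elsewhere in the genome.

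*Atp5d* (ENSMUSG00000003072, chr10:79974466-79981652, plus strand, 4 exons), the delta subunit of the ATP synthase stalk, measured 133, 125 and 138 CPM in Control, 121, 116 and 115 CPM in BGP and 114, 123 and 127 CPM in NaHPO4. Its BGP libraries lay below the Control libraries and overlapped those of NaHPO4. The log2 fold change with BGP was -0.17 ± 0.042 (adjusted p = 0.019), or 0.889 times Control. With NaHPO4 it was -0.12 ± 0.041 (adjusted p = 0.0754). The BGP call was lost without Control 1, Control 3, BGP 2 or BGP 3 (adjusted p = 0.076, 0.149, 0.101 and 0.0861), and *Atp5d* was called lower with NaHPO4 without Control 2 or NaHPO4 3 (adjusted p = 0.0213 and 0.0387).

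The other nuclear genes with a low unadjusted p under BGP were *Ndufb3*, *Ndufa3* and *Ndufb11* of complex I, *Sdhb* of complex II and *Cox4i1* of complex IV. Their log2 fold changes lay between -0.17 and -0.10, with adjusted p between 0.145 and 0.263, and in all of them the BGP and Control libraries did not overlap. The 6 mitochondrial genes had small positive values with BGP, median 0.046, from 0.022 for *mt-Co1* to 0.090 for *mt-Nd2*. That median was 0.072 without Control 2 and 0.073 after correction for gene length. None was called by edgeR, 1 had an unadjusted p below 0.05, and DESeq2 called 1, both times *mt-Nd2* (edgeR adjusted p = 0.106, DESeq2 adjusted p = 0.0264).

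With NaHPO4, 2 of the 82 nuclear genes rose compared to Control and 1 fell, 3.66% in all. All genes tested were called in 7.38% of cases, 3.43% higher and 3.95% lower, and 19.9% had an unadjusted p below 0.05, a level that 7 nuclear members reached upward and 6 downward. The median of the nuclear genes was 0.025, with 53 of 82 above 0, against 9.75e-05 for all genes. Libraries did not overlap for 10 nuclear genes higher and 6 lower, where 11.6% of all genes did so in each direction. Complex V had the highest median, 0.059 with 14 of 17 genes above 0, followed by complex IV at 0.033, complex II at 0.020, complex I at 0.013 and complex III at 0.012. The nuclear median was 0.045 without NaHPO4 1, 0.013 without NaHPO4 2 and 0.050 with scaling by total counts. Without NaHPO4 3 it was -0.0034, with 0 genes called higher and 3 lower. Leaving out 1 library moved the count of genes called higher between 0 and 4 (4 without NaHPO4 1, 1 without Control 1, 2 or 3 or NaHPO4 2) and that of genes called lower between 0 and 3 (3 without Control 2, 0 without Control 1 or 3 or NaHPO4 1 or 2), and scaling by total counts gave 4 higher and 0 lower.

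*Ndufa4* (ENSMUSG00000029632, chr6:11897630-11907496, minus strand, 4 exons) measured 93.1, 99.2 and 101 CPM in Control, 95.8, 97.7 and 102 CPM in BGP and 107, 109 and 117 CPM in NaHPO4. The NaHPO4 libraries lay above all others, and Control and BGP overlapped throughout. Its log2 fold change with NaHPO4 was 0.17 ± 0.042 (adjusted p = 0.00519), or 1.13 times Control. The call was lost without Control 1 or NaHPO4 3 (adjusted p = 0.0729 and 0.0635).

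*Atp5b* (ENSMUSG00000025393, chr10:127919132-127926261, plus strand, 10 exons) measured 795, 785 and 802 CPM in Control, 823, 813 and 826 CPM in BGP and 811, 874 and 882 CPM in NaHPO4. Both phosphate conditions lay above Control in all libraries, and NaHPO4 1 lay below the BGP libraries while NaHPO4 2 and 3 lay above them. Its log2 fold change was 0.11 ± 0.032 with NaHPO4 (adjusted p = 0.0303) and 0.047 ± 0.032 with BGP (adjusted p = 0.572). The NaHPO4 call was lost without any of the 3 Control libraries (adjusted p = 0.0876, 0.0912 and 0.0512), without NaHPO4 2 or NaHPO4 3 (0.162 and 0.154), and when the fit held Control and NaHPO4 alone (0.0538).

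*Ndufa13* (ENSMUSG00000036199, chr8:70346808-70355872, minus strand, 5 exons), a complex I subunit also known as GRIM-19, measured 129, 130 and 129 CPM in Control, 127, 127 and 128 CPM in BGP and 113, 120 and 123 CPM in NaHPO4. All NaHPO4 libraries lay below all others. The log2 fold change with NaHPO4 was -0.13 ± 0.037 (adjusted p = 0.03), or 0.917 times Control, and BGP differed from NaHPO4 by 0.097 ± 0.037 (adjusted p = 0.141). The call was lost without Control 1, 2 or 3 (adjusted p = 0.0894, 0.075 and 0.0712), without NaHPO4 1 or 2 (0.181 and 0.0641), with scaling by total counts (0.0955) and after correction for gene length (0.0579, or 0.0636 with the replicate number as a block).

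Among the uncalled genes with NaHPO4, *Ndufa2* stood at 0.16 ± 0.056 (adjusted p = 0.0867), *Atp5g3* at 0.11 ± 0.037 (adjusted p = 0.0649) and *Cox4i1* at -0.11 ± 0.039 (adjusted p = 0.0856). *Cox4i1* thus had similar values under both phosphates, -0.10 with BGP and -0.11 with NaHPO4, in comparisons that share their Control libraries. It was called lower with NaHPO4 without Control 2 or NaHPO4 3 (adjusted p = 0.0408 and 0.0217). *Atp5g3* was called higher with total counts (0.0194), without Control 1 or NaHPO4 1 (0.0188 and 0.0417) and with the length correction (0.0155, or 0.018 with the replicate block). The mitochondrial genes had a median of -0.051 with NaHPO4, 5 of 6 below 0, from -0.070 for *mt-Co1* to 0.015 for *mt-Nd2*. That median was -0.022 without Control 2 and -0.026 with scaling by total counts. None was called by edgeR or DESeq2, and 1, *mt-Co1*, had an unadjusted p below 0.05 (adjusted p = 0.171).

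The direct comparison of BGP with NaHPO4 gave medians of opposite sign for the nuclear and mitochondrial genes, in the comparison where 5 of the 10 osteoblast and osteocyte markers were called higher in BGP. In BGP, 3 of 82 nuclear genes (3.66%) were lower and 0 higher, while 2 of 6 mitochondrial genes were higher and 0 lower. Of all genes tested, 5.38% were called, 3.33% higher and 2.05% lower, and 16.9% had an unadjusted p below 0.05, against 16 nuclear genes lower and 2 higher, and 6 of 6 mitochondrial genes higher, at that level. DESeq2 also called 0 nuclear genes higher. The nuclear median was -0.040, with 59 of 82 below 0, and the mitochondrial median 0.092, with 6 of 6 above 0, against -0.0018 for all genes. The nuclear median was -0.064 without NaHPO4 1 and -0.067 with scaling by total counts. Libraries of BGP lay below those of NaHPO4 without overlap for 17 nuclear genes and above them for 5, where 10.4% and 10.8% of all genes did so. Among nuclear genes the medians were -0.036 for complex I, -0.058 for complex II, -0.0032 for complex III, -0.050 for complex IV and -0.040 for complex V.

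*Ndufa3* (ENSMUSG00000035674, chr7:3620342-3623326, plus strand, 4 exons), a small complex I subunit, measured 46.7, 48.0 and 44.5 CPM in Control, 43.5, 39.3 and 44.4 CPM in BGP and 47.6, 50.1 and 51.5 CPM in NaHPO4. The BGP libraries lay below all Control and NaHPO4 libraries, and those of Control and NaHPO4 overlapped. BGP stood at 0.852 times the NaHPO4 level, a log2 fold change of -0.23 ± 0.053 (adjusted p = 0.00496). Against Control the values were -0.13 with BGP (adjusted p = 0.263) and 0.10 with NaHPO4 (adjusted p = 0.281). Without BGP 2, its lowest library, the call was lost (adjusted p = 0.0818).

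*Ndufa4*, with the values given above, stood in BGP at 0.889 times its NaHPO4 level (log2 fold change -0.17 ± 0.042, adjusted p = 0.0091), a call lost without BGP 1, BGP 2 or NaHPO4 3 (adjusted p = 0.0715, 0.0523 and 0.0991). *Atp5j* (ENSMUSG00000022890, chr16:84614160-84633154, minus strand, 4 exons), coupling factor 6 of the ATP synthase, measured 111, 103 and 112 CPM in Control, 107, 104.2 and 100.2 CPM in BGP and 112, 113 and 115 CPM in NaHPO4. Its BGP libraries lay below those of NaHPO4, and Control 2 lay within the BGP range. The log2 fold change was -0.13 ± 0.040 (adjusted p = 0.0444). DESeq2 did not call it (adjusted p = 0.0617), nor did edgeR without BGP 1, 2 or 3 (0.0513, 0.116 and 0.229) or without NaHPO4 2 or 3 (0.115 and 0.138).

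Of the mitochondrial genes, *mt-Nd5* (ENSMUSG00000064367, mitochondrial positions 11742 to 13565) measured 2934, 3034 and 2904 CPM in Control, 3036, 3044 and 3108 CPM in BGP and 2878, 2851 and 2812 CPM in NaHPO4. *mt-Nd4* (ENSMUSG00000064363, positions 10167 to 11544) measured 1919, 1993 and 1923 CPM in Control, 1987, 2046 and 2038 CPM in BGP and 1924, 1852 and 1858 CPM in NaHPO4. For both, every BGP library lay above every NaHPO4 library. BGP stood at 1.08 times the NaHPO4 level for both, a log2 fold change of 0.11 ± 0.029 for *mt-Nd5* (adjusted p = 0.0235) and 0.11 ± 0.030 for *mt-Nd4* (adjusted p = 0.0242).

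The remaining mitochondrial genes pointed the same way without passing the edgeR test described above. *mt-Co1* stood at 0.092 ± 0.030 (adjusted p = 0.0654), with 9781, 9774 and 10200 CPM in BGP and 9479, 9237 and 9202 CPM in NaHPO4. *mt-Cytb* stood at 0.092 ± 0.033 (adjusted p = 0.106), *mt-Nd2* at 0.076 (adjusted p = 0.148) and *mt-Nd1* at 0.074 (adjusted p = 0.176). DESeq2 did call *mt-Co1* (adjusted p = 0.0363), as did edgeR without a filter (0.00358) and without Control 2 or NaHPO4 1 (0.0424 and 0.0383). The length correction gave 0.0315 for *mt-Co1*, or 0.0446 with the replicate block. *mt-Cytb* was called without a filter or without NaHPO4 1 (0.00856 and 0.0329), and *mt-Nd2* with the length correction (0.0497). In all 6 genes the BGP libraries lay above the NaHPO4 libraries without overlap. These genes are transcribed together and are not independent of each other. Scaled by total counts, 0 mitochondrial genes were called between BGP and NaHPO4, and leaving out 1 library moved the count between 0 (BGP 2, BGP 3, NaHPO4 2 or NaHPO4 3) and 4 (NaHPO4 1), with 1 without BGP 1. The nuclear count moved from 3 to 0 without BGP 2, to 1 without BGP 1 or NaHPO4 3, and to 9 without NaHPO4 1 or with scaling by total counts.

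The 4 genes of complex II, the 9 nuclear genes of complex III and the mobile carrier cytochrome c had no call in any comparison. Of all genes tested, 2.53%, 7.38% and 5.38% were called. At an unadjusted p below 0.05 there was 1 gene of complex II in each comparison and 0 of nuclear complex III. *Sdhb* stood at -0.11 with BGP and -0.037 with NaHPO4 against Control (adjusted p = 0.247 and 0.707), and *Sdha* at 0.031 and 0.078 (adjusted p = 0.79 and 0.234). *Sdhd* stood at -0.13 in BGP relative to NaHPO4 (adjusted p = 0.0667), and was called with scaling by total counts or without BGP 3 (adjusted p = 0.0192 and 0.0304). *Sdhc* and *Cyc1* lay within 0.05 of 0 on the log2 scale in every comparison, and *Cycs* ran from -0.052 with BGP to -0.014 between BGP and NaHPO4.

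**Figure D4:**
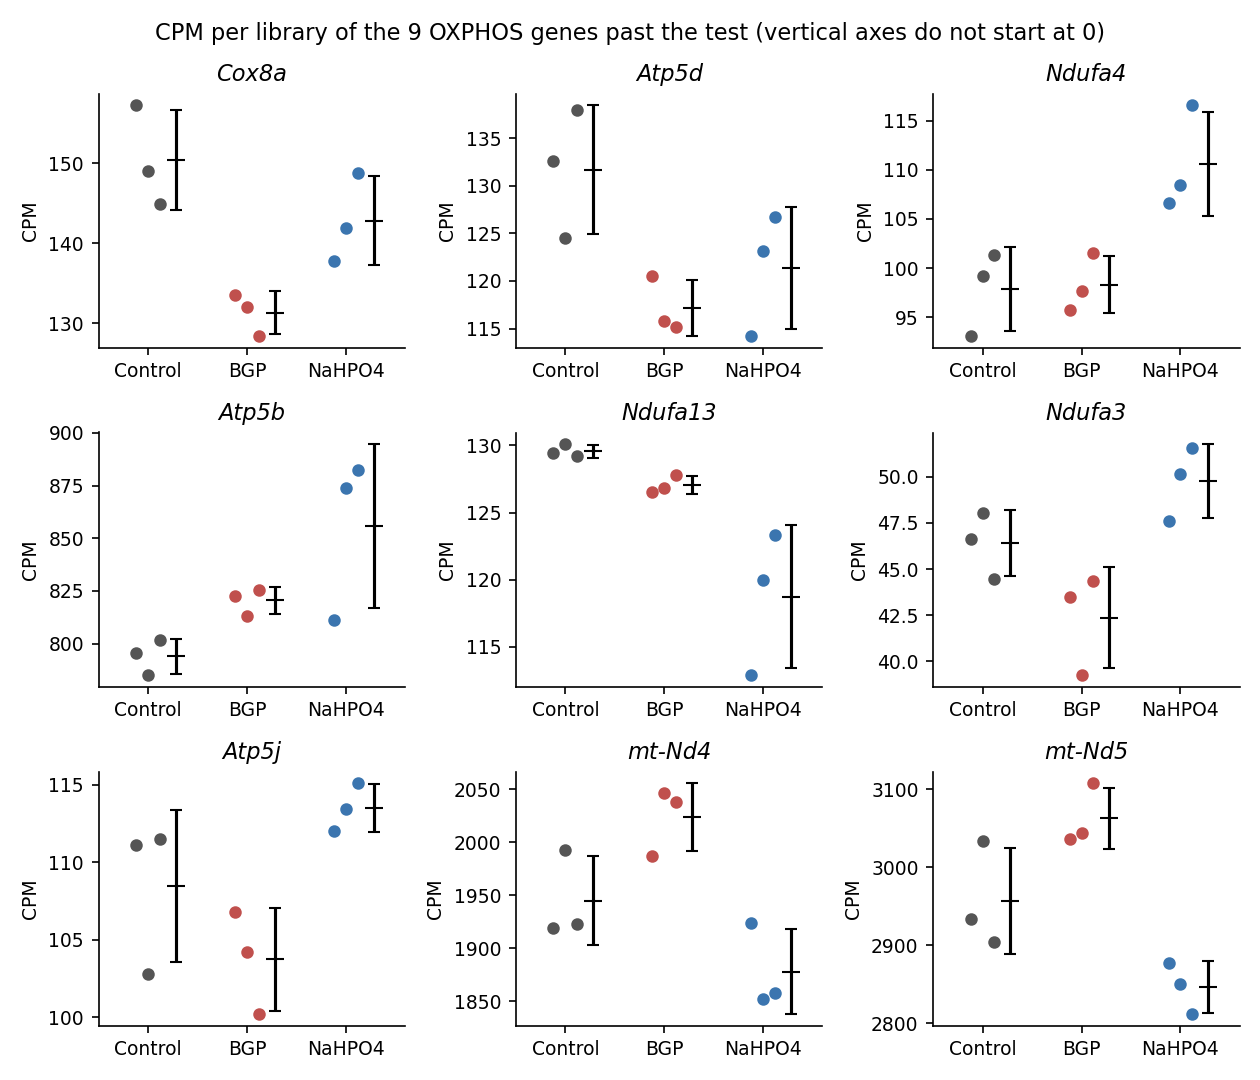
CPM of the 9 OXPHOS genes that passed the test in a comparison, each dot 1 library and the bars beside them mean ± SD of 3 libraries, on axes that do not start at 0. *Cox8a* is lowest in BGP (128 to 134 CPM), *Ndufa4* highest in NaHPO4 (107 to 117 CPM), and *mt-Nd4* and *mt-Nd5* are higher in every BGP than in every NaHPO4 library.

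A ratio taken within each library does not depend on how libraries are scaled. The counts of the 6 mitochondrial genes divided by those of the 94 nuclear genes gave 3.71, 3.96 and 3.70 in Control, 3.88, 3.93 and 4.02 in BGP and 3.79, 3.55 and 3.47 in NaHPO4. All BGP libraries lay above all NaHPO4 libraries, and Control overlapped both. NaHPO4 2 and 3, the lowest, also held the highest nuclear shares, 0.695% and 0.712% of counts, while NaHPO4 1 at 0.669% lay within the Control range of 0.662% to 0.681%. BGP libraries held 0.658% to 0.662% nuclear and 2.57% to 2.65% mitochondrial counts.

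**Figure D5:**
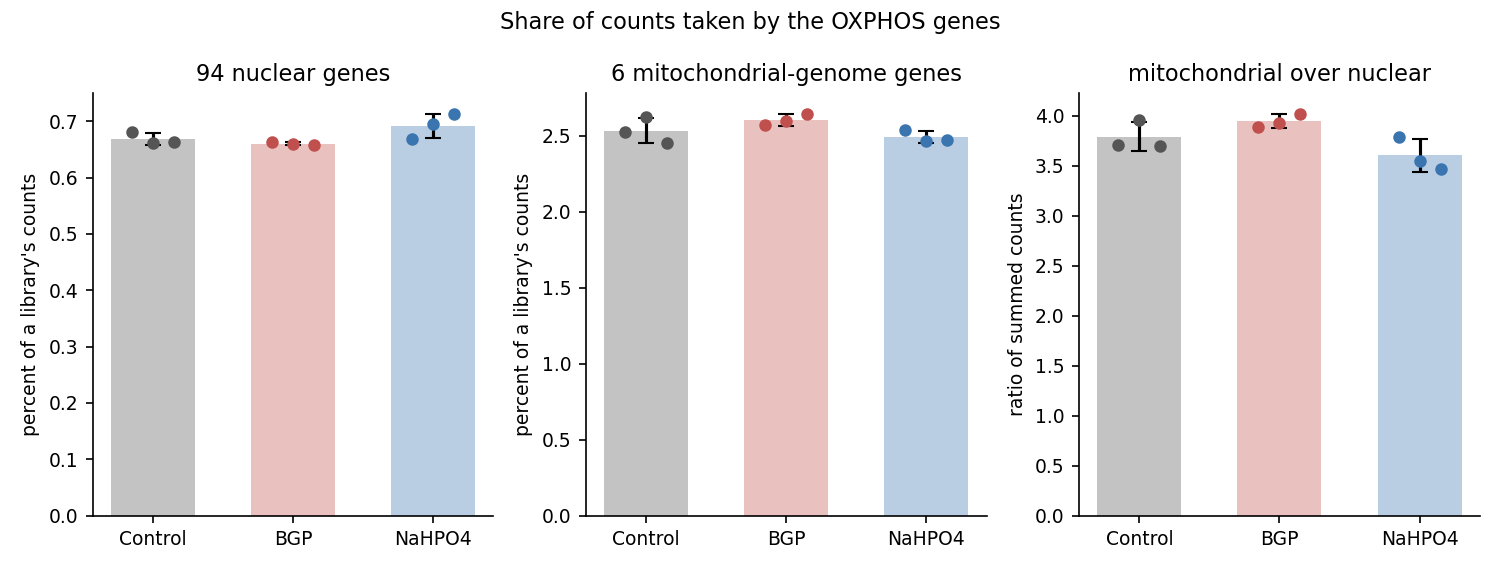
Percent of each library's counts taken by the nuclear and the 6 mitochondrial OXPHOS genes, and the ratio of mitochondrial to nuclear counts, each dot 1 library, with bars at means and error bars of 1 SD (n = 3). The ratio lies between 3.88 and 4.02 in BGP and between 3.47 and 3.79 in NaHPO4.

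Nuclear OXPHOS genes are classically regulated by NRF1, the ETS factor GABPA, YY1 and SP1, with co-activators of the PGC-1 family, and the mitochondrial genome by TFAM and its own polymerase. A list of 24 regulators was examined, which did not hold *Sp1*. *Ppargc1a*, of the PGC-1 family, had too few counts to be tested. Of the other 23, edgeR and DESeq2 called 0 in any comparison. For BGP versus Control, NaHPO4 versus Control and BGP versus NaHPO4, edgeR called 2.53%, 7.38% and 5.38% of all genes. At an unadjusted p below 0.05 there were 2, 0 and 2 regulators, against 13.4%, 19.9% and 16.9% of all genes. *Nrf1* measured 30.7 ± 1.4 CPM in Control (SD, n = 3), 30.7 ± 0.37 in BGP and 30.5 ± 2.0 in NaHPO4. *Gabpa* measured 89.2 ± 3.1, 90.6 ± 2.9 and 94.2 ± 2.8 CPM, and *Yy1* 86.7 ± 2.1, 86.0 ± 2.8 and 86.6 ± 2.0 CPM in the same order. *Tfam*, which packages mitochondrial DNA and takes part in starting its transcription, measured 33.6 ± 1.0, 34.2 ± 0.90 and 35.5 ± 1.5 CPM. *Polrmt*, the mitochondrial RNA polymerase, measured 36.9 ± 3.1, 35.9 ± 0.89 and 34.5 ± 2.6 CPM. *Lrpprc*, which stabilises mitochondrial mRNAs, measured 58.9 ± 1.4, 63.8 ± 2.1 and 62.6 ± 3.1 CPM, with adjusted p of 0.247 for BGP and 0.296 for NaHPO4 versus Control.

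Motifs of these factors were looked for in RefSeq promoter windows of GRCm38.p6, 250 bases before to 50 after each start site, which matched 67 of the 82 nuclear genes tested in 72 windows. The other genes, such as *Cox4i1*, *Cyc1* and *Sdhc*, had no window used here. Both strands were searched for CGCNTGCGC (NRF1), CCGGAAG (GABPA), AAGATGGCG (YY1) and GGGGCGGGG (SP1). The NRF1 letters occurred in 30.6% of member windows against 6.25% of all 32851 windows, the GABPA letters in 23.6% against 8.86%, the YY1 letters in 9.72% against 1.40% and the SP1 letters in 13.9% against 11.4%. Member windows had a median GC content of 58.8% against 52.7% for all windows, which bears on GC-rich motifs. The set of all windows was not limited to genes tested in these cells, and the part of this in the contrast was not tested. In all, 42 of the 67 genes held at least 1 of the 4 motifs. A match describes letters and not a bound site.

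The 150 bases before the start are printed for 5 genes that hold each kind of motif: *Sdha* with 3 NRF1 matches, *Cycs* with 1, *Sdhd* with NRF1 and GABPA, *Atp5j* with YY1 and GABPA, and *Ndufa3* with SP1, the last 2 being genes called between BGP and NaHPO4. The window of *Atp5j* at its other start held none of the motifs. Among the other nuclear genes called in a comparison, *Cox8a*, *Atp5b* and *Ndufa13* held matches, while *Ndufa4* and *Atp5d* held none. Whether motifs go with calls was not tested. Capitals mark the motif matches. In GRCm38.p6 they lie at chr13:74350241-74350390, chr6:50566570-50566719, chr9:50603850-50603999, chr16:84834977-84835126 and chr7:3617223-3617372, the first 4 on the minus strand and *Ndufa3* on the plus strand.
Sdha: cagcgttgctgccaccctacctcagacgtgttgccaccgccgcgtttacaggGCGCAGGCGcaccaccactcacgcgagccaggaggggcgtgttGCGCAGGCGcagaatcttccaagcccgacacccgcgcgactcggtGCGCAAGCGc
Cycs: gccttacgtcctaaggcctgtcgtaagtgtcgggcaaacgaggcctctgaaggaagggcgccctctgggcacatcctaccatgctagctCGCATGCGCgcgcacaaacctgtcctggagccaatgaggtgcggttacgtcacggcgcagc
Sdhd: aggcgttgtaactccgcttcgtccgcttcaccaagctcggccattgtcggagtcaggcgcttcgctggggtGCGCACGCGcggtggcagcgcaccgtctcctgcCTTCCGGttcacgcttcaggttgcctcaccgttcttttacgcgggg
Atp5j: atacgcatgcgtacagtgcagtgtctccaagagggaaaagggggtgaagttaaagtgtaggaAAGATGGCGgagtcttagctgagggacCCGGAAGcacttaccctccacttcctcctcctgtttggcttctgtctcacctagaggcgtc
Ndufa3: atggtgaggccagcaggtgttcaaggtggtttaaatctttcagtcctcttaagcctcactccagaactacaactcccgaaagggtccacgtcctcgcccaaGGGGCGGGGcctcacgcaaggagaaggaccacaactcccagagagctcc

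Genes that act beside the complexes were counted in the same way. Across all genes tested, edgeR called 2.53% for BGP versus Control, 7.38% for NaHPO4 versus Control and 5.38% for BGP versus NaHPO4. At an unadjusted p below 0.05 the shares were 13.4%, 19.9% and 16.9%, and these shares apply to every list that follows. Of 48 assembly factors tested, the proteins that build the complexes without staying in them, 0 were called by edgeR or DESeq2 in any comparison, with 4, 2 and 3 at an unadjusted p below 0.05. Of 17 genes of the TCA cycle and pyruvate dehydrogenase, which feed electrons to complexes I and II, 0 were called by either tool, with 0, 0 and 2 at the unadjusted level. The medians of the TCA genes were 0.0083, 0.016 and -0.014 in the same order.

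Among 7 tested carriers and channels, *Slc25a5*, an ADP/ATP carrier that exports the product of complex V, rose with BGP from 201 ± 2.2 to 222 ± 2.4 CPM (log2 fold change 0.15 ± 0.035, adjusted p = 0.0128), while NaHPO4 at 213 ± 8.3 CPM did not pass the test (adjusted p = 0.132). Its paralog *Slc25a4* stood at -0.066 with BGP (adjusted p = 0.39). *Slc25a3*, the mitochondrial phosphate carrier, measured 345 ± 9.6 CPM in Control, 344 ± 13 in BGP and 359 ± 8.1 in NaHPO4, with adjusted p of 0.982 and 0.348 versus Control. *Atpif1*, the inhibitor of the ATP synthase, was lower in BGP than in NaHPO4 (62.4 ± 2.0 against 69.8 ± 5.7 CPM, log2 fold change -0.16 ± 0.049, adjusted p = 0.0478), and DESeq2 called 0 of the carriers in that comparison.

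Of the 77 mitochondrial ribosomal protein genes tested, which translate the mitochondrial mRNAs, 0 were called against Control and 2, *Mrpl13* and *Mrps24*, were lower in BGP than in NaHPO4 (log2 fold changes -0.21, adjusted p = 0.0176 and 0.0336). Those 2 are 2.6% of the genes tested here, against 5.38% of all genes called in that comparison. The unadjusted counts of the mitochondrial ribosomal genes were 4, 8 and 4, and DESeq2 called 0, 0 and 1. The 83 cytosolic ribosomal protein genes tested, also short and abundant, had 4, 4 and 3 calls in edgeR, all lower, with medians of -0.045, -0.035 and -0.012, and 23, 19 and 11 at an unadjusted p below 0.05. DESeq2 called 6 lower in each comparison with Control, and 3 lower and 2 higher between BGP and NaHPO4. Of all genes tested, 0.665%, 3.95% and 2.05% were called lower by edgeR in these comparisons. Among 16 genes of the mitochondrial and integrated stress response, *Shmt2* rose with BGP (0.16 ± 0.043, adjusted p = 0.0302), and *Atf5* was higher with NaHPO4 than in Control (0.13 ± 0.036, adjusted p = 0.0166) or BGP (BGP versus NaHPO4, -0.14 ± 0.036, adjusted p = 0.0166). Each comparison thus had 1 call, or 6.25% of the 16, against 2.53%, 7.38% and 5.38% of all genes. At an unadjusted p below 0.05 there were 4, 5 and 5, with list medians of 0.078, 0.051 and 0.048. Of the nuclear-retained RNAs examined, of which 3 were tested, *Neat1* fell with NaHPO4 by 0.41 on the log2 scale (adjusted p = 4.21e-10), and was higher in BGP than in NaHPO4 by 0.37 (adjusted p = 5.44e-09). The part of these differences in the OXPHOS values was not tested.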

How the data were processed

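RNA of 9 libraries was sequenced by the authors as stranded polyA libraries with paired reads of 50 bases, and their counts per gene on GRCm39 were deposited as whole numbers. FastQC and edgeR are named in the submitters' processing notes, without versions. The aligner, the counter, its strand setting and its treatment of reads with several matches are not given in the sources used here. A second deposited table holds the same counts multiplied by 1 constant per library (a normalised signal of the authors) and was used for gene names only. The deposited tables held 0 columns of samples outside the study.

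Counts were tested with edgeR 4.0.16 in R 4.3.3: filterByExpr with a count minimum of 10, TMM scaling, and glmQLFit and glmQLFTest on all 9 libraries in 1 fit with a coefficient per condition. Adjusted p-values (Benjamini-Hochberg) cover all 13679 genes tested. Counts per 1e6 counts (CPM) use TMM-scaled library sizes, RPKM also the canonical transcript length of GENCODE vM39, chosen after the union and longest lengths had been looked at. How much the longer forms are used in these cells was not measured. Shared sequence was measured as the percent of 50-base transcript windows with an exact match elsewhere in GRCm39. Tables and plots were made with Python 3.11.15, pandas 2.3.3 and matplotlib 3.10.9. The test was checked on simulated counts, where recovery was required only of changes larger than those of the OXPHOS genes called. Its recovery of changes as small as theirs is not given here. Depth of 21390839 to 28234404 counts leaves genes with few counts imprecise, and intervals for them are wide.

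The genes and lists were chosen with earlier results of these data known. Genes are named if they passed the test in a comparison (up to 10 per direction), lie in the mitochondrial genome, belong to complex II or cytochrome c, have tissue isoforms, or are the highest or lowest of their complex, and companion genes if they passed the test. Others named, such as *Ndufa2*, *Ndufb3*, *Ndufb11* and the uncalled regulators and carriers, were picked with their values in view. Alternatives tried were DESeq2 1.42.0, its size factors or total counts as scaling, other filters, only the 2 conditions compared, a replicate block, a length correction, other transcript lengths for RPKM, and each library left out.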

Additional observations from a re-analysis of the deposited data

Results flagged for a closer look

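For 5 genes the change with BGP and the change with NaHPO4, both against Control, differed by the test of that difference itself, which is the direct comparison of BGP with NaHPO4 in edgeR. The change with BGP minus the change with NaHPO4 was -0.231 on the log2 scale for *Ndufa3* (adjusted p = 0.00496), -0.169 for *Ndufa4* (0.0091) and -0.13 for *Atp5j* (0.0444), with all 3 BGP libraries below all 3 NaHPO4 libraries in each. It was 0.105 for *mt-Nd5* (0.0235) and 0.107 for *mt-Nd4* (0.0242), with all BGP libraries above all NaHPO4 libraries. Each of the 5 calls was lost when 1 or more single libraries were left out, as given with each gene or with the mitochondrial count. The cause of these differences was not tested.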

How the results depend on the processing

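The counts of nuclear genes called higher and lower, the count of mitochondrial genes called and both medians, in 3 comparisons, gave 15 results, each computed under 18 alternatives. Of these 270 values, 231 stayed within the limits set for them (1.5 times a count, 1 SD of a median) and 39 moved, 27 of them among the 135 that left out 1 library. For BGP versus Control, mitochondrial calls went from 0 to 1 under DESeq2, without a filter, and with the length correction alone or with the replicate block. Nuclear genes called lower numbered 1 to 2 with 1 library left out, against 2. For NaHPO4 versus Control, nuclear genes called higher, 2 in the report, numbered 1 with only the 2 conditions fitted, 4 with total counts and 0 to 4 with 1 library left out. Those called lower, 1 in the report, numbered 0 with total counts and 0 to 3 with 1 library left out. The nuclear median ran from -0.0034 to 0.045 with 1 library left out. For BGP versus NaHPO4, nuclear genes called lower, 3 in the report, numbered 9 with total counts and 0 to 9 with 1 library left out. Mitochondrial calls, 2 in the report, numbered 0 with total counts, 4 without a filter, 4 with the length correction and 0 to 4 with 1 library left out. The nuclear median was -0.067 with total counts and -0.064 to -0.029 with 1 library left out. With 1 library left out, the nuclear median for BGP versus Control ran from -0.040 to -0.015, and the mitochondrial medians from 0.035 to 0.072, -0.065 to -0.022 and 0.074 to 0.109 in the 3 comparisons. The cause of these moves was not tested. Of 1884 values of 35 named genes, 41 lost a call, 29 gained one and 0 reversed.

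Replicate numbers are shared between conditions. The deviations of same-numbered libraries from their condition means, over all genes tested, had a mean correlation of 0.013 (lowest -0.0092, highest 0.043, 9 pairs). These pairs are not independent of each other. Whether same-numbered libraries shared a batch cannot be told from this, since a batch that acts on few genes would barely move such values. With the replicate block, nuclear calls numbered 0 higher and 2 lower for BGP versus Control, 2 and 1 for NaHPO4 versus Control, and 0 and 3 for BGP versus NaHPO4, with 0, 0 and 2 mitochondrial calls. The medians with the block were -0.027, 0.025 and -0.040 for nuclear and 0.047, -0.051 and 0.093 for mitochondrial genes.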
